A study of Mus musculus with 8 samples.

Results

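This account describes 9 genes of interferon signalling in mouse mesenchymal stromal cells: the receptor chains Ifnar1, Ifnar2, Ifngr1 and Ifngr2, the kinases Jak1, Jak2 and Tyk2, the transcription factor Stat2 and the inhibitor Socs1. The 9 were picked by name, and each was read by 1 probe set, out of 19505 genes with a symbol on the array. Total RNA was labelled with biotin and measured on Affymetrix arrays. There were 4 arrays of cells infected with the lentiviral vector pLKO.1 carrying a short hairpin against Irf7 (shIRF7), 2 arrays with pLKO.1 carrying a scrambled hairpin (scramble) and 2 arrays with pLKO.1 without a hairpin (empty vector). Every group consisted of stromal cells isolated from inguinal fat pads, the donors being male FVB mice at 12 months of age, grown in high-glucose DMEM with serum and antibiotics, and all had been infected with the vector. The labels name no hairpin sequence, no interferon treatment and no uninfected cells. They do not say whether the arrays of a group came from separate mice, isolations or infections, so a p-value measures the spread between arrays, which may be technical.

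Type I interferons bind a receptor made of Ifnar1 and Ifnar2, to which the kinases Tyk2 and Jak1 are attached. Interferon gamma binds a receptor made of Ifngr1 and Ifngr2, which carry Jak1 and Jak2. The activated kinases phosphorylate Stat proteins, and Stat2 joins Irf9 in the complex ISGF3, which binds interferon-stimulated response elements and switches on antiviral genes, Irf7 among them. Irf7 in turn drives transcription of type I interferon genes. Socs1, itself induced by the pathway, blocks the Jak kinases and ends the signal. Jak1 and Jak2 also serve many other cytokine receptors of stromal cells.

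Irf7, the target of the hairpin, had log2 values of 4.42, 5.66, 6.47 and 6.79 on shIRF7 arrays 1 to 4, against 9.56 and 9.76 on the scramble arrays and 9.55 and 9.61 on the empty vector arrays. The groups did not overlap (two-sided exact permutation test, p = 0.0286, the smallest that 70 assignments of 4 against 4 allow). In the limma fit used for the other genes, Irf7 had an adjusted p of 0.0692. The target of the hairpin thus missed the threshold of 0.05 in that fit. The 95th percentile of the negative control probe sets, used here as the level that background reaches, was 7.93 to 8.72 on the 8 arrays. Irf7 exceeded it on 0 of 4 shIRF7 arrays and on 4 of 4 control arrays, so its difference is a bound: set against this level, Irf7 was at least 2.34-fold lower in shIRF7. Of 12 mesenchymal stromal markers measured, 8 exceeded it on every array, while Nt5e (CD73) and Lum exceeded it on none. None of the 12 passed the limma threshold, and 4 were lower in shIRF7 at an unadjusted p under 0.05 (8.12% of all 19505 genes were at such a p in either direction). These were Thy1 (-2.15), Cd44 (-1.34), Col1a1 (-0.88) and Col1a2 (-0.70), with adjusted p between 0.187 and 0.525. Thy1 exceeded background on 2 of 8 arrays. The 2 collagen genes were lower without overlap, against 2.8% of all genes. Of the 12 markers 8 had a negative and 4 a positive difference, the largest positive ones being Dcn (1.22) and Lum (1.07). Dcn varied widely inside the groups, from 7.62 to 14.06 in shIRF7 and from 8.05 to 15.84 in the controls. The mean log2 level of the 12 was 12.19 to 12.77 on the shIRF7 arrays and 12.47 to 13.60 on the control arrays. The part of this in the differences described here was not tested. The 8 macrophage, 7 lymphocyte, 8 endothelial and 7 epithelial markers exceeded it on no array. Of 7 adipocyte markers 6 exceeded it on no array, and Fabp4 did so on 4, with 9.01, 7.03, 7.09 and 7.23 in shIRF7, against 8.73 and 8.97 in scramble and 8.16 and 8.46 in empty vector (limma adjusted p = 0.629). Medians of the negative controls were lower in replicate 1 (4.18 in shIRF7, 4.26 in scramble, 4.21 in empty vector) than in replicate 2 (4.56 in shIRF7, 4.56 in scramble, 4.55 in empty vector). They were 4.54 and 4.33 in replicates 3 and 4 of shIRF7. The difference inside replicate numbers 1 and 2 is printed next to the pooled value as a description. The numbers were not taken as pairs: replicate 1 minus replicate 2 correlated across genes with r = -0.29 and -0.21 between shIRF7 and the 2 controls. Between empty vector and scramble the same correlation was 0.76, so the 4 control arrays may not be independent. In some genes, Acta2, Osmr and Stat3 among them, shIRF7 replicates 2 and 3 lay close together and apart from replicates 1 and 4. In others, such as Ifngr1, they did not. Replicates 2 and 3 of shIRF7 may thus not be independent either, which the labels do not settle. A setting reported below averages them into 1. The other SDs and p-values given here count the arrays of every group as independent. In bulk RNA a smaller share of cells that express a gene and less RNA per cell cannot be told apart.

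The kinases Jak1 and Jak2 were the members that differed most clearly. Both were lower on all 4 shIRF7 arrays than on every control array, by 1.35 and 1.04 on the log2 scale, while the partner kinase Tyk2 and the 4 receptor chains overlapped between the groups. In the limma fit across all genes 0 of 9 members passed an adjusted p of 0.05 in shIRF7 against both controls (background 0.0308% of 19505 genes), with a lowest adjusted p of 0.0692 for Jak1. At an unadjusted p under 0.05 there were 2 of 9 members, Jak1 and Jak2, against 8.12% of all genes. Against scramble alone and against empty vector alone 0 of 9 members passed as well (background 0.00513% and 0% of genes), and the same pair, Jak1 and Jak2, were under an unadjusted p of 0.05 (background 6.14% and 5.84%). Non-overlapping groups with lower shIRF7 values were found in 2 of 9 members, against 2.8% of all genes. The median log2 difference was -0.18 over the 9 members and 0.0017 over all genes.

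**Figure D1:**
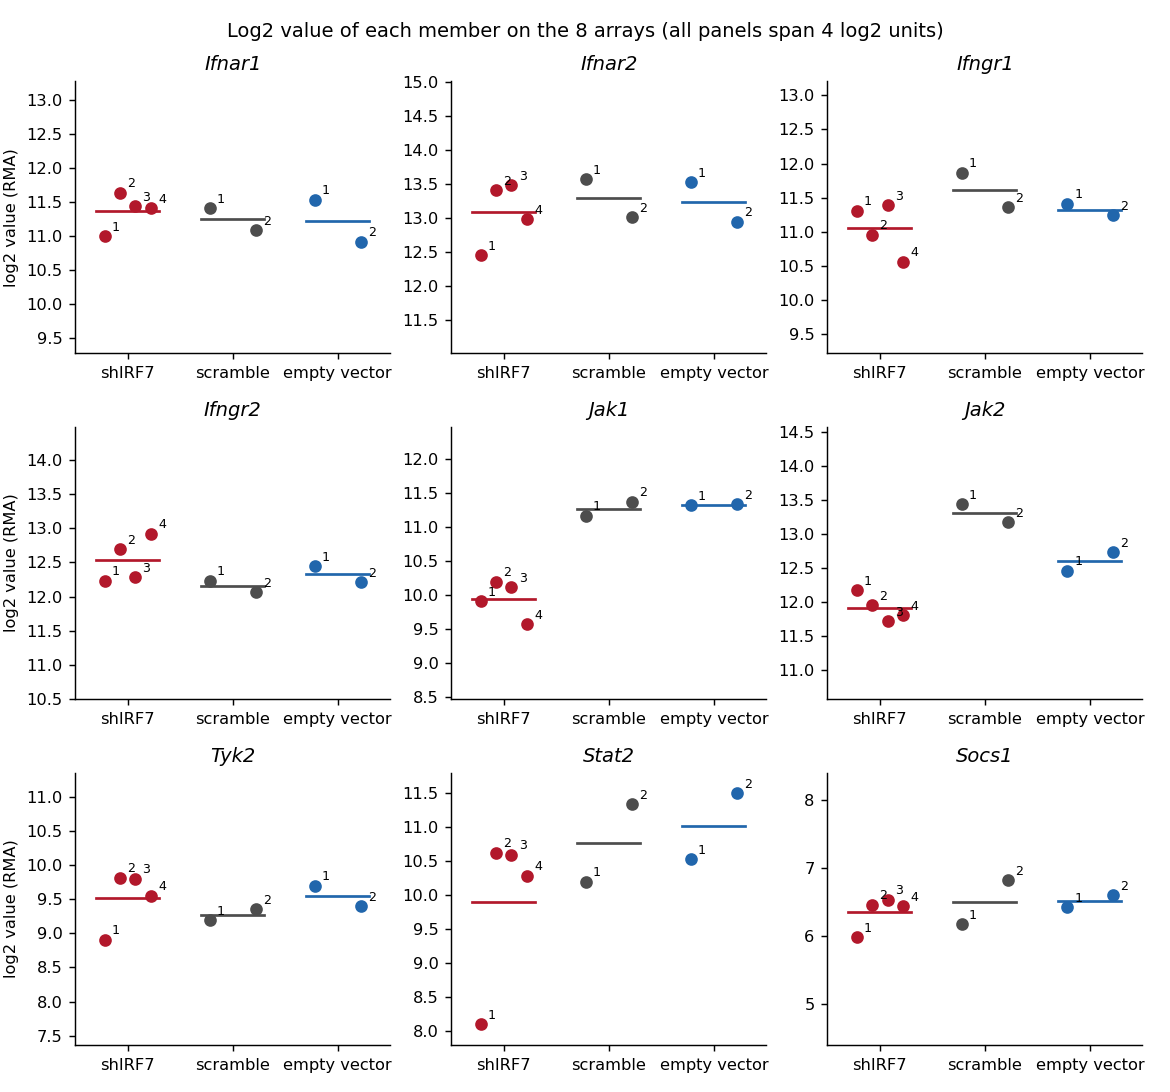
Log2 value (RMA) of each of the 9 genes on each array, with the replicate number beside each point and a bar at the group mean; every panel spans 4 log2 units, and levels are not comparable between panels. The 4 shIRF7 arrays lie below all 4 control arrays for Jak1 and Jak2, and shIRF7 replicate 1 lies at 8.10 for Stat2.

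Ifnar1, a chain of the type I interferon receptor that binds Tyk2, had log2 values of 11.00, 11.64, 11.45 and 11.41 in shIRF7, against 11.41 and 11.09 in scramble and 11.54 and 10.92 in empty vector. The groups overlapped, and 3 of 4 shIRF7 arrays lay above the control mean. The log2 difference was 0.13 (SE 0.21, 95% interval -0.35 to 0.61, limma adjusted p = 0.932). Ifnar2, the chain that binds Jak1, had 12.45, 13.41, 13.49 and 12.99 in shIRF7, against 13.58 and 13.01 in scramble and 13.52 and 12.95 in empty vector. One shIRF7 array, replicate 1, was lower than every control, and the other 3 lay within their range. The difference of Ifnar2 was -0.18 (SE 0.28, 95% interval -0.83 to 0.47, limma adjusted p = 0.929), and it had opposite signs within replicate 1 (-1.10) and replicate 2 (0.43). Within replicates 1 and 2 Ifnar1 differed by -0.48 and 0.63, also with opposite signs.

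Ifngr1, the chain that binds interferon gamma with high affinity and carries Jak1, had log2 values of 11.30, 10.96, 11.39 and 10.56 in shIRF7, against 11.86 and 11.36 in scramble and 11.41 and 11.24 in empty vector. All 4 shIRF7 arrays were under the control mean and 2 of them were under the lowest control, but the groups overlapped. Its difference was -0.42 (SE 0.22, 95% interval -0.94 to 0.11, limma adjusted p = 0.716), with -0.33 and -0.34 within replicates 1 and 2. Ifngr2, the signalling chain that carries Jak2, had 12.23, 12.69, 12.29 and 12.92 in shIRF7, against 12.23 and 12.07 in scramble and 12.45 and 12.21 in empty vector. Replicates 2 and 4 of shIRF7 exceeded every control and the other 2 did not. The difference of Ifngr2 was 0.29 (SE 0.19, 95% interval -0.15 to 0.74, limma adjusted p = 0.778), and it was -0.11 in replicate 1 alone and 0.55 in replicate 2 alone. Against both controls the intervals of Ifnar1, Ifnar2, Ifngr1 and Ifngr2 exclude a fall or a rise of 1 on the log2 scale, but not smaller ones. Against scramble alone those of Ifngr1 (-1.20 to 0.079) and Ifnar2 (-1.01 to 0.59) do not exclude a fall of 1.

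In the RefSeq gene order of assembly GRCm38.p6, Ifnar2, Il10rb, Ifnar1 and Ifngr2 are consecutive protein-coding genes on chromosome 16. Il10rb encodes a chain shared by the receptors of interleukin 10 and interferon lambda. It had a log2 difference of -0.079 (limma adjusted p = 0.967), with 10.22, 10.89, 11.02 and 10.73 in shIRF7, against 10.96 and 10.73 in scramble and 10.87 and 10.61 in empty vector. Its lowest value, like that of Ifnar2, was on shIRF7 replicate 1. This was not particular to the neighbours: Tyk2, Stat2 and Socs1 were also lowest there, while Ifnar1 (10.92) and Ifngr2 (12.07) were lowest on control arrays. Of the 4 neighbours 0 passed the threshold (background 0.0308% of genes).

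Jak1, the kinase shared by both interferon receptors, had log2 values of 9.91, 10.20, 10.12 and 9.57 on shIRF7 arrays 1 to 4, against 11.17 and 11.38 in scramble and 11.32 and 11.34 in empty vector. The highest shIRF7 value lay 0.97 below the lowest control value, and the means were 9.95 ± 0.28 in shIRF7 and 11.30 ± 0.09 in the controls (SD, n = 4 each). The log2 difference was -1.35 (SE 0.17, 95% interval -1.75 to -0.95), that is 39.2% of the control level (95% interval 29.7% to 51.7%). It missed the threshold in limma (adjusted p = 0.0692), where Jak1 ranked 16 of 19505 genes by p. With both controls as 1 group of 4 arrays Jak1 passed (limma adjusted p = 0.0299), and over the 17 alternatives the adjusted p ran from 0.0299 to 0.655. The difference was similar in size in every setting tried, between -1.43 and -1.23, and it was -1.33 within replicate 1 and -1.16 within replicate 2. Against scramble alone it was -1.32 (adjusted p = 0.239) and against empty vector alone -1.38 (adjusted p = 0.252), while the controls differed from each other by -0.055 (adjusted p = 1.00).

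Jak2, the kinase attached to Ifngr2 and to the receptors of growth hormone and erythropoietin, had 12.17, 11.95, 11.71 and 11.80 in shIRF7, against 13.43 and 13.17 in scramble and 12.46 and 12.72 in empty vector. The groups did not overlap, with a gap of 0.29 between the highest shIRF7 array and the lowest control, and the scramble arrays stood above both empty vector arrays. The means were 11.91 ± 0.20 in shIRF7 and 12.95 ± 0.44 in the controls (SD, n = 4 each). The log2 difference was -1.04 (SE 0.16, 95% interval -1.41 to -0.67), or 48.7% of the control level (95% interval 37.6% to 63%), with a limma adjusted p of 0.111. It was -0.77 within replicate 1 and -0.998 within replicate 2. The size depended on the control: -1.39 (95% interval -1.85 to -0.94, adjusted p = 0.238) against scramble, and -0.68 (95% interval -1.14 to -0.23, adjusted p = 0.648) against empty vector. Scramble itself exceeded empty vector by 0.71 (95% interval 0.18 to 1.23, adjusted p = 1.00). Between the controls 0 of 9 members passed the limma threshold (background 0% of genes). Jak2 was the 1 of 9 members at an unadjusted limma p under 0.05 there, against 1.93% of all genes.

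Tyk2, the kinase that pairs with Jak1 at the type I receptor, had 8.91, 9.82, 9.80 and 9.55 in shIRF7, against 9.20 and 9.35 in scramble and 9.70 and 9.40 in empty vector. Replicates 2 and 3 of shIRF7 were above every control and replicate 1 was below every control. The log2 difference was 0.11 (SE 0.23, 95% interval -0.43 to 0.64, limma adjusted p = 0.954), and it was -0.54 within replicate 1 and 0.44 within replicate 2. Within each array, Jak1 minus Tyk2 was 1.01, 0.38, 0.31 and 0.019 in shIRF7, against 1.97 and 2.02 in scramble and 1.62 and 1.94 in empty vector. This log2 difference between 2 probe sets was smaller on all 4 shIRF7 arrays than on every control, so the shift was unequal between Jak1 and Tyk2. Jak2 minus Tyk2 was 3.27, 2.13, 1.91 and 2.24 in shIRF7, against 4.23 and 3.82 in scramble and 2.76 and 3.33 in empty vector, and here shIRF7 replicate 1 overlapped the controls. For Jak1 minus Jak2 the groups overlapped as well, with a mean of -1.96 in shIRF7 and -1.64 in the controls.

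**Figure D2:**
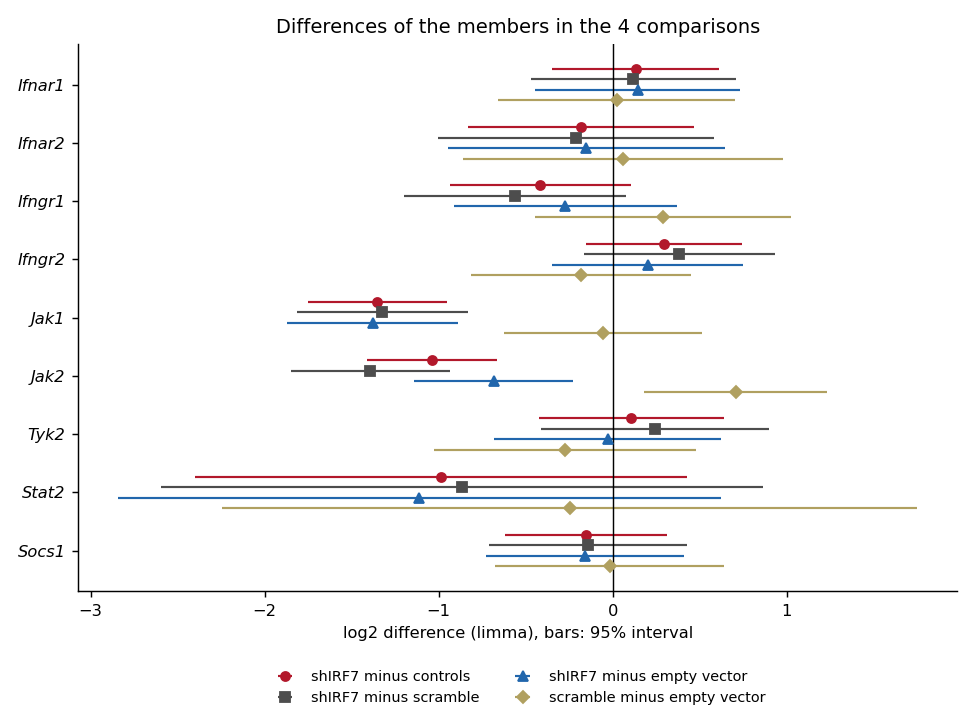
Log2 difference of the 9 genes (x axis, limma) in shIRF7 minus both controls, shIRF7 minus scramble, shIRF7 minus empty vector and scramble minus empty vector, with bars for the 95% interval before adjustment. The 3 shIRF7 comparisons share arrays and are not independent; their intervals lie below 0 for Jak1 and Jak2, and scramble lies above empty vector for Jak2 (0.71).

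The 250 bases before an annotated start of each member (RefSeq, GRCm38.p6, all 9 matched by symbol) were searched on both strands for the core of the interferon-stimulated response element, GAAANNGAAA, and for the gamma-activated site TTCNNNGAA. In chromosome coordinates the outer edge of the RefSeq gene differed from that start for Jak1 (59 bases), Tyk2 (118) and Ifnar1 (-183). In these genes the edge lay inside the window, and in the others the edge and the start were the same. The first was found in 2 of 9 member windows, those of Stat2 and Socs1, and in 2.98% of 32851 windows of the same length. The second was found in 1 of 9, that of Ifnar2, and in 7.02% of all windows. The windows of Jak1 and Jak2, the 2 genes with non-overlapping groups, held neither string of letters. Those 4 windows are shown 5′ to 3′ in the direction of the gene so that the genes that were lower without a match can be read beside those with one, with matches in capitals. Jak1 lies at chr4:101265224-101265473 on the minus strand, Jak2 at chr19:29251553-29251802 on the plus strand, Stat2 at chr10:128270248-128270497 on the plus strand and Socs1 at chr16:10785537-10785786 on the minus strand.
Jak1: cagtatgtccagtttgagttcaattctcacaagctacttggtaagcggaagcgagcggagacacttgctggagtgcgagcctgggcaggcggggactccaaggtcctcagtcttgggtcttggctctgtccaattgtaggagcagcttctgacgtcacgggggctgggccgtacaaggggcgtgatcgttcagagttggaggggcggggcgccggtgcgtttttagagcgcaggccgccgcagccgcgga
Jak2: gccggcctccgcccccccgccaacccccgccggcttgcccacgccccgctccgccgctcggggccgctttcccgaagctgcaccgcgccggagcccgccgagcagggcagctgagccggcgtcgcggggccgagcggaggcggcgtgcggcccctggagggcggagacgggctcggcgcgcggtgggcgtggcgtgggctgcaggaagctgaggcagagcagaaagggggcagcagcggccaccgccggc
Stat2: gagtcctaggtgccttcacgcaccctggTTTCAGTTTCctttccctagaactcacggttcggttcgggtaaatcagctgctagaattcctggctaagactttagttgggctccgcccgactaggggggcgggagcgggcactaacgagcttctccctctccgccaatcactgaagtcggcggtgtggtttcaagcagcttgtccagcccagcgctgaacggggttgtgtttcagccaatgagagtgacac
Socs1: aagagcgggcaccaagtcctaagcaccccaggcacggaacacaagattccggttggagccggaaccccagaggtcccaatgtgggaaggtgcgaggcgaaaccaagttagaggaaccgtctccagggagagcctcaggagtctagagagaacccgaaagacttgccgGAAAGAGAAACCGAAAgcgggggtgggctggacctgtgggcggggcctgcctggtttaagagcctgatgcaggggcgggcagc
The match of Stat2 begins 222 bases before the start and reads in the reverse direction. Socs1 holds 2 matches that overlap, beginning 83 and 77 bases before the start. A match is a string of letters and was not tested for binding, and elements outside these windows were not searched.

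Stat2, the Stat protein specific to interferon signalling and a subunit of ISGF3, had log2 values of 8.10, 10.62, 10.59 and 10.29 in shIRF7, against 10.20 and 11.33 in scramble and 10.53 and 11.49 in empty vector. Replicate 1 of shIRF7 was far below all other arrays. The other 3 lay within the range of the controls, and all 4 lay under the control mean. The means were 9.90 ± 1.21 in shIRF7 and 10.89 ± 0.63 in the controls (SD, n = 4 each), and the log2 difference was -0.99 (SE 0.61, 95% interval -2.40 to 0.43, limma adjusted p = 0.757). Without shIRF7 replicate 1 the difference was -0.39 (limma adjusted p = 0.774). Stat2 was higher in replicate 2 than in replicate 1 in all 3 groups, and shIRF7 differed by -2.26 within replicate 1 and by -0.79 within replicate 2. On shIRF7 replicate 1 the mean log2 level of 6 mural cell markers was 7.67, against 5.59 to 6.35 on the other shIRF7 arrays and 5.91 to 6.41 in the controls. Of those 6 markers 1, Acta2, exceeded background on every array and 4 on none. Mcam (10.7), Myh11 (7.06, within background) and Acta2 (18.6) had their highest shIRF7 value on replicate 1. Rgs5 (3.11), Cspg4 (2.97) and Des (3.60) did not, so the list mean does not describe all 6 markers. The part of these marker levels in the Stat2 value was not tested.

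Socs1, the inhibitor of the Jak kinases, had 5.98, 6.46, 6.54 and 6.44 in shIRF7, against 6.17 and 6.82 in scramble and 6.43 and 6.60 in empty vector. The groups overlapped, with 1 shIRF7 array below the lowest control. The difference was -0.15 (SE 0.20, 95% interval -0.62 to 0.32, limma adjusted p = 0.915), and -0.32 and -0.25 within replicates 1 and 2. Socs1 was the 1 member that exceeded the background level (95th percentile of negative controls) on 0 of 8 arrays, so its level was not separable from background and a difference could be understated. The other 8 members exceeded it on all 8 arrays.

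**Figure D3:**
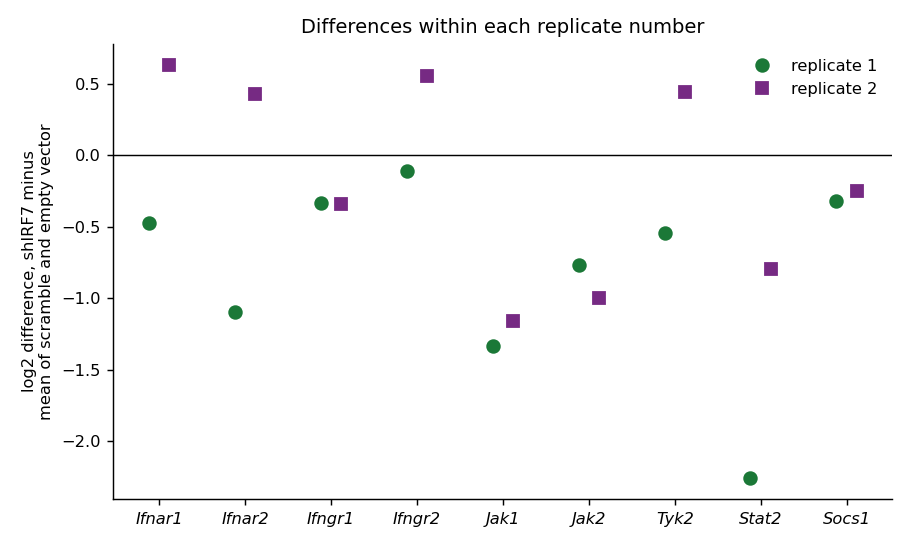
Log2 difference of shIRF7 minus the mean of scramble and empty vector, within replicate 1 (circles) and within replicate 2 (squares), for the 9 genes, with 1 array per group and no error. Jak1, Jak2, Ifngr1, Stat2 and Socs1 lie below 0 in both replicates, and Ifnar1, Ifnar2, Ifngr2 and Tyk2 have opposite signs. No label says that a replicate number marks a shared batch, so the numbers are not pairs.

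Among the other genes of the pathway, Irf9, the partner of Stat2 in ISGF3, was below every control on all 4 shIRF7 arrays but did not pass the threshold. It had 7.59, 8.83, 8.77 and 9.29 in shIRF7, against 9.80 and 10.14 in scramble and 9.93 and 10.18 in empty vector, without overlap. Its log2 difference was -1.40 (SE 0.35, limma adjusted p = 0.319), with -2.27 and -1.34 within replicates 1 and 2. Stat2 minus Irf9 within each array was 0.51, 1.79, 1.82 and 1.00 in shIRF7, against 0.39 and 1.19 in scramble and 0.60 and 1.31 in empty vector, so the groups overlapped. Of 6 other Jak and Stat genes measured, 0 passed the limma threshold (background 0.0308% of genes) and 1, Irf9, was at an unadjusted p under 0.05 (background 8.12%), with a median of -0.051. Stat3, which transmits interleukin 6 signals, differed by -0.24 (adjusted p = 0.872) and Stat4 by 0.13 (adjusted p = 0.904).

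Of 20 inhibitors of the pathway measured, 0 passed the limma threshold in either direction (background 0.0308% of genes) and the median was -0.025. Among them 1 was lower without overlap and 2 were higher without overlap, against 2.8% and 2.58% of all genes. Usp18, an isopeptidase that binds Ifnar2 and dampens its signal, had 7.24, 7.40, 7.24 and 9.73 in shIRF7, against 11.31 and 12.09 in scramble and 10.86 and 11.99 in empty vector. The log2 difference of Usp18 was -3.66 (SE 0.61, 12.7-fold lower, limma adjusted p = 0.148), with -3.85 and -4.64 within replicates 1 and 2. Only 5 arrays exceeded background for Usp18, the 4 controls and shIRF7 replicate 4, so its fold may be understated. Socs2, which restrains growth hormone signals, differed by 0.92 (SE 0.42, adjusted p = 0.64). Cish, a Stat5-induced inhibitor, differed by 0.89 (SE 0.25, adjusted p = 0.391) and exceeded background on no array. Ptpn1, a phosphatase that acts on Jak2 and Tyk2 and that was named because its groups did not overlap, had 11.69, 11.84, 11.50 and 11.72 in shIRF7, against 10.58 and 11.41 in scramble and 11.09 and 11.32 in empty vector. Its difference was 0.59 (SE 0.20, limma adjusted p = 0.52).

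Of 19 interferon ligand genes measured, 0 exceeded background on any array, and the largest difference was that of Ifnz (-1.06, limma adjusted p = 0.268), followed by Ifnl3 (-0.35) and Ifnl2 (-0.30). Ifnb1, the gene of interferon beta, differed by 0.028 (adjusted p = 0.98). The list had a median of -0.023, with 0 genes past the threshold (background 0.0308%) and 3 of 19 lower at an unadjusted p under 0.05 (background 8.12% in either direction), all at background on every array. Of 24 other receptor chains that signal through Jak kinases, 0 passed the threshold, and 2 were lower at an unadjusted p under 0.05, a share near the 8.12% of all genes in either direction. Their median was -0.076. Il6ra, the interleukin 6 receptor chain, had 6.63, 7.65, 7.72 and 7.06 in shIRF7, against 8.33 and 7.79 in scramble and 8.98 and 8.47 in empty vector. Its groups were separate by a small margin, and the difference was -1.13 (SE 0.29, adjusted p = 0.332), with 2 of 8 arrays above background. Il15ra differed by -0.53 (adjusted p = 0.584) and Osmr, the oncostatin M receptor, by -0.44 (adjusted p = 0.846).

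Among the pathway lists, the targets of type I interferon had the lowest median. Of 19 genes induced mainly through ISGF3, 2 fell in limma and 0 rose (background 0.0308% of genes), 11 were lower without overlap (background 2.8%), and the median difference was -2.09. The 19 include Irf7, the target of the hairpin, and Usp18, which is also among the inhibitors. Without Irf7, 10 of 18 were lower without overlap and the median was -1.94. The 2 that fell were Ifi27l2a, an interferon-stimulated gene (-4.01, SE 0.37, adjusted p = 0.0483), and Bst2, the virus tether of the cell surface (-2.89, SE 0.30, adjusted p = 0.0483). Both calls were lost in limma with the replicate block, with shIRF7 replicates 2 and 3 averaged, and when either scramble array, or replicate 2 or 3 of shIRF7, was left out, settings in which 0 genes in all passed. The call of Ifi27l2a was also lost without empty vector replicate 2 or replicate 4 of shIRF7, and that of Bst2 without either empty vector array, without replicate 1 of shIRF7, or with trend and robust fitting. Over 17 alternatives Ifi27l2a passed in 9 (adjusted p 0.0234 to 0.303) and Bst2 in 7 (adjusted p 0.0116 to 0.316), and their differences ran from -4.30 to -3.73 and from -3.19 to -2.75. Neither exceeded background on any shIRF7 array, so that against the background level Bst2 was at least 2.73-fold lower and Ifi27l2a, above background on 3 of 4 control arrays, at least 1.05-fold lower. Of 18 genes induced mainly by interferon gamma, 0 passed, 6 were lower without overlap (background 2.8%), and the median was -0.28. Gbp3, a guanylate-binding protein, differed by -2.90 (adjusted p = 0.174), Iigp1, an immunity-related GTPase, by -2.34 (adjusted p = 0.197) and Psmb8, an immunoproteasome subunit, by -1.69 (adjusted p = 0.488). Gbp3 exceeded background on 4 of 8 arrays, Iigp1 on 1 and Psmb8 on 0. Of the 18, 4 exceeded background on all 8 arrays. Among these, Tap1 (-1.64, limma adjusted p = 0.174) and Irgm1 (-1.26, adjusted p = 0.363) were lower without overlap. The groups of the other 2, B2m (-0.34) and Irf1 (-0.22), overlapped. Both target lists were written with the falls of interferon-response genes in these data known, so their counts describe the arrays and are not independent evidence of a direction. Many targets lay near background in shIRF7, where folds are understated. Of the targets, 7 of 19 for type I interferon and 11 of 18 for interferon gamma exceeded background on no array. These genes enter the medians, so the 2 medians are not directly comparable. The difference between the 2 target lists was not tested.

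**Figure D4:**
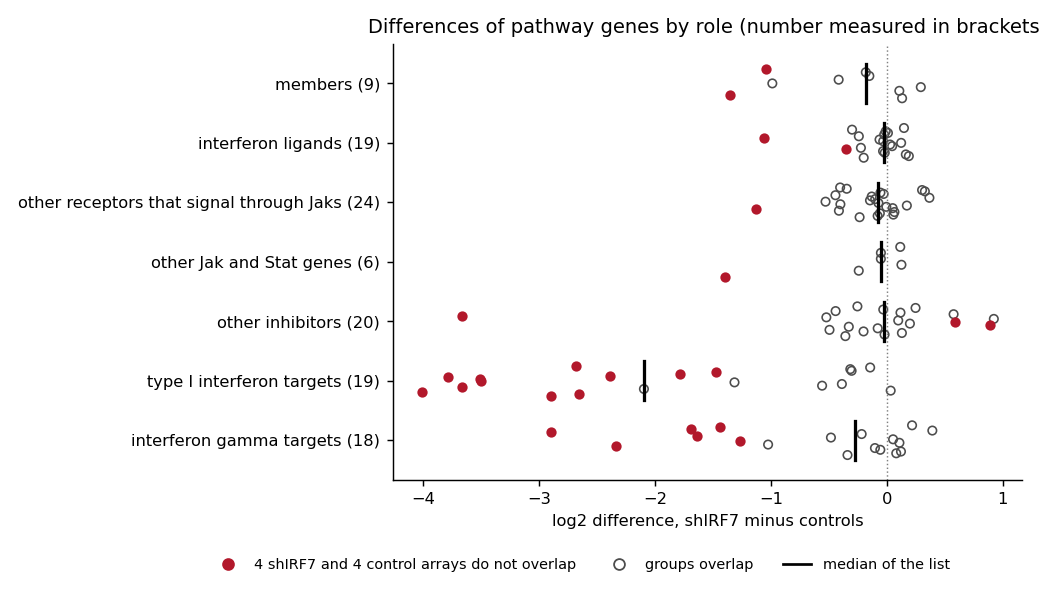
Log2 difference, shIRF7 minus controls (x axis), of each measured gene of the pathway by role, with the number measured in brackets. Filled points have 4 shIRF7 and 4 control values that do not overlap, open points overlap, and the black bar is the median of the list. The medians are -0.18 for the 9 members, -2.09 for type I interferon targets and between -0.28 and -0.02 for the others. They include genes within background on every array, 7 of 19 type I and 11 of 18 interferon gamma targets among them.

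Likeness over the 8 arrays was measured as the root mean square difference between log2 values centred per gene, for the 5 members whose values spanned at least 1. The genes closest to Jak1 were Elk4, a transcription factor that works with serum response factor (0.147), Ube2z, a ubiquitin-conjugating enzyme (0.168), and Snx19, a sorting nexin (0.191). They differed between shIRF7 and the controls by -1.19, -1.12 and -1.25 (limma adjusted p = 0.122, 0.0799 and 0.0692). Closest to Jak2 were Arhgap29 (0.118), the glycosyltransferase C1galt1 (0.15) and Apbb1ip (0.209), with differences of -0.89, -0.97 and -0.94. None of the 3 genes closest to Jak1 was among the 3 closest to Jak2. Closest to Stat2 were Il1rl2, the receptor of interleukin 36 (0.366), Parp9, which is itself interferon-induced (0.376), and Rsrp1 (0.406), and these distances were larger than those of the other 4 members. For Ifnar2 the closest were Vps11 (0.114), Dock1 (0.117) and Trafd1 (0.122), and for Ifngr1 they were Dpep2 (0.113), Atl3 (0.125) and Ccdc107 (0.128). The measure set no limit on level. Dpep2 (2.47 to 3.60) and Ccdc107 (5.09 to 6.23) exceeded background on 0 of 8 arrays, so their likeness to Ifngr1 is between a gene above background and probe sets within it. Snx19 and Parp9 exceeded background on 3 of 8 arrays, and the other 11 genes named for likeness did so on all 8. These distances describe 8 arrays that share cells, vector and processing. The named genes were picked on those same arrays, shIRF7 and controls included. Differences near those of Jak1 and Jak2 therefore follow from the choice, and the p-values beside them are no separate evidence.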

How the data were processed

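Gene expression was measured on 8 Affymetrix arrays; groups and replicate numbers came from the sample labels. The deposited table holds log2 values that, per the submitters' processing notes, the authors made with RMA (Affymetrix Expression Console, version 1.4.1.46), which removes a shift shared by most genes; the log base was read from the values (1.66 to 18.9). The genome build of the platform: not given in the sources used here. All 19572 probe sets with 1 gene symbol, of 28846, matched RefSeq (GRCm38.p6) by gene identifier; the brightest of a gene was kept, leaving 19505 genes. Unused array columns numbered 0.

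The groups were compared with limma, version 3.58.1, run in R 4.3.3 (functions lmFit and eBayes; a mean per group over 8 arrays, 5 residual and 2.68 prior degrees of freedom), with Benjamini-Hochberg over all genes at 0.05. The fit was tested on simulated data with independent noise on each array, which does not test it for arrays that are not independent. "Controls" means the equally weighted mean of scramble and empty vector. The number of arrays limits the precision. A bound ("at least") is the control mean minus the mean over shIRF7 arrays of the higher of the background level and the gene's own log2 value. From each pathway list, genes past the threshold were named, or otherwise up to 3 with the largest difference. Ifnb1, Il10rb, Ptpn1, Tap1, Irgm1, B2m and Irf1 were added after their values were seen. In those lists 11 genes had no match by symbol. Members and lists were chosen with earlier results of these data known. Alternatives changed the filter, the eBayes setting, the normalization, the probe set rule, the grouping of controls, a replicate block and the arrays included.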

Additional observations from a re-analysis of the deposited data

Results flagged for a closer look

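Stat2 measured 8.10 on shIRF7 replicate 1, far from the other 3 shIRF7 arrays (10.29 to 10.62): its gap to the nearest of them was 0.868 of the range of the group, above Dixon's 95% critical value for 4 samples. Of 10 genes examined this way in shIRF7 (the 9 members and Irf7) it was the 1 that passed; chance gives about 1 in 20 groups.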

How the results depend on the processing

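The number of members past the threshold in shIRF7 against controls was 0 in 16 of 17 alternatives and 1 (Jak1, adjusted p = 0.0299) with both controls as 1 group; in the other 3 comparisons it was 0 in every alternative run. Without single arrays Jak1 differed by -1.43 to -1.23, Jak2 by -1.13 to -0.97 and Stat2 by -1.27 to -0.39, and the measured values of Irf7, which is within background on every shIRF7 array, by -4.10 to -3.31. Of 608 member values under alternatives 583 kept direction and side of the threshold, 24 changed sign, at values between -0.28 and 0.32, and 1 (Jak1) passed; the cause was not tested.

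Against controls the sign turned for Tyk2 with the replicate block (-0.050), and without single arrays for Ifnar1 (-0.022 to 0.29), Socs1 (-0.31 to 0.011) and Ifnar2 (-0.33 to 0.029). Without single arrays Ifnar1 ran from -0.041 to 0.28, Ifnar2 from -0.49 to 0.071 and Socs1 from -0.47 to 0.18 against scramble, and Ifnar1 from -0.16 to 0.45, Ifnar2 from -0.44 to 0.14 and Tyk2 from -0.18 to 0.18 against empty vector. In scramble against empty vector Ifnar1 turned with cyclic loess (-0.0017), as did Socs1 (0.013, and 0.013 with arrays centred on their median), and without single arrays Ifnar1 ran from -0.28 to 0.33, Ifnar2 from -0.23 to 0.35, Jak1 from -0.16 to 0.048, Stat2 from -0.81 to 0.32 and Socs1 from -0.34 to 0.31.

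Over all genes, shIRF7 against controls called 6 genes, 3 with trend and robust fitting, 28 with both controls as 1 group, 0 with the replicate block, 0 with shIRF7 replicates 2 and 3 averaged, and 0 to 28 without single arrays. Against scramble the count was 1, and 0 without dim genes, with trend and robust fitting, with arrays centred on their median, with the replicate block or with replicates 2 and 3 averaged, and 0 to 8 without single arrays; against empty vector it was 0, and 0 to 3 without single arrays. At an unadjusted limma p under 0.05 there were 1583, 1197 and 1139 genes. The replicate block left 2 residual degrees of freedom; Jak1 differed by -1.25 (adjusted p = 0.655) and Jak2 by -0.88 (adjusted p = 1.00). Replicate 1 minus replicate 2 correlated across genes with r = 0.757 between empty vector and scramble but -0.29 and -0.21 between shIRF7 and each of them, and no label says that a number marks a shared batch, so the numbers were not taken as pairs. Socs1 lies within background, so only a large difference could show.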
